A study of Homo sapiens with 36 samples.

Results

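The DNA replication and G1/S genes are 48 named genes whose products start S phase and copy DNA. They were followed in ZR-75-1, an estrogen receptor-positive luminal breast cancer cell line, on Illumina bead arrays, in which each probe's brightness stands for the amount of its transcript. They were chosen by name, through the platform annotation of the probes, and not by their values. All 48 had a probe, 73 probes in all, and 46 could be tested among 12195 genes. GINS1, a subunit of the GINS complex, was above background on 1 of 36 arrays and CCNE2, cyclin E2, on 0 of 36, so neither was tested. The other 46 passed the filter, which asked for signal above background (detection p under 0.05) on at least 4 arrays of any groups.

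The cells were held for 48 h in phenol red-free medium with 10% hormone-stripped serum and then treated for 16 h. The 9 groups of 4 arrays were the ethanol vehicle (VC), the estrogen estradiol (E2), the androgen dihydrotestosterone (DHT), the progestin medroxyprogesterone acetate (MPA), natural progesterone (PROG), E2 together with DHT, with MPA or with PROG, and a group labelled E2s+PROG, whose "s" the labels do not explain. The labels give 10 nM for E2 and for DHT, and no dose for MPA, for PROG or for E2 given beside these. All arrays came from 1 cell line, and nothing in the labels says that the 4 replicates were separate cultures, so that p-values measure only the spread between these samples. The comparisons ask how E2 and the other hormones, alone and together, changed the genes.

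Before a cell copies its DNA, the origin recognition complex (ORC), CDC6 and CDT1 load the MCM2 to MCM7 ring onto origins, which is called licensing. Cyclin E with its kinase, and the E2F transcription factors freed from the retinoblastoma protein, then carry the cell into S phase, where CDC45 and GINS turn the ring into the working helicase and the polymerases, the sliding clamp PCNA and its loader RFC copy both strands. In estrogen receptor-positive breast cancer cells E2 is a known stimulus of this G1 to S step. In RNA from a whole culture, fewer cells in S phase and less RNA per cell cannot be told apart.

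Many of these genes carry E2F sites close to their start. RefSeq promoters (build GRCh38.p14) were matched by symbol for 41 of the 48 genes, with 52 promoters, and the 250 bases before the start were searched on both strands for TTT followed by C or G at each of the next positions and then CGC. At least 1 match lay in 18 of the 41 genes, or 43.9%, against 928 of 27305 genes in the whole promoter table. Of the 19 genes that rose with E2, as given further on, 16 had a promoter and 8 of these held a match. Of the 27 tested genes that did not pass, 24 had a promoter and 10 held a match. The stretches around the matches are shown for those 8 genes, and for PCNA and TYMS, which hold a match and did not pass. Capitals mark the matches, and each stretch runs 5′ to 3′ toward the gene's start.
MCM6, chr2:135876502-135876615, minus strand: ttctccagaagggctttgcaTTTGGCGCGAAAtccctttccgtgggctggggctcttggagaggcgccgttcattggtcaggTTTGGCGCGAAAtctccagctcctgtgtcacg
MCM7, chr7:100101398-100101604, minus strand: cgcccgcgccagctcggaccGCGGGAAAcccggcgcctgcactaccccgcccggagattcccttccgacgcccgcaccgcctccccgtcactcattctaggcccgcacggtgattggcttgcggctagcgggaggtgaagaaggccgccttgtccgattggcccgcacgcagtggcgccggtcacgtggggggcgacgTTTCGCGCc
POLA1, chrX:24693761-24693860, plus strand: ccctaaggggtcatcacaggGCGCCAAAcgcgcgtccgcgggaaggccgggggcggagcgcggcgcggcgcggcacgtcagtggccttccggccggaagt
POLA2, chr11:65261862-65261961, plus strand: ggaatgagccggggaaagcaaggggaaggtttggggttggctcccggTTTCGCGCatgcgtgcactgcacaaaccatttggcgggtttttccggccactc
RFC3, chr13:33818049-33818148, plus strand: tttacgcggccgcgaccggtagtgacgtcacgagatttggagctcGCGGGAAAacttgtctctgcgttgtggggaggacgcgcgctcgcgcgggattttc
LIG1, chr19:48170379-48170478, minus strand: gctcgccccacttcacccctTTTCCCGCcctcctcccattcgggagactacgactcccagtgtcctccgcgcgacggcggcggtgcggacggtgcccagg
E2F2, chr1:23531234-23531333, minus strand: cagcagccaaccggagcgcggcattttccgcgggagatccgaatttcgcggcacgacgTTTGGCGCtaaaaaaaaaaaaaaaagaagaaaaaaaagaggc
UHRF1, chr19:4909401-4909500, plus strand: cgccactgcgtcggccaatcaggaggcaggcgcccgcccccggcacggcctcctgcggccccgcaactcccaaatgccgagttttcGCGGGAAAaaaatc
PCNA, chr20:5126623-5126722, minus strand: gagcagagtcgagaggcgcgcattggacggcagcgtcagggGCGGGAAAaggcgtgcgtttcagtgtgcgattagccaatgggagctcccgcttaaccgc
TYMS, chr18:657553-657652, plus strand: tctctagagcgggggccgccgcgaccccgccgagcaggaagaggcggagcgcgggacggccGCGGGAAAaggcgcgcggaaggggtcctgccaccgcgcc

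In MCM6 each capital run holds a pair of overlapping matches, 1 on each strand, so that 4 matches lie between 152 and 79 bases before the start. MCM7 held 2 matches, which begin 187 and 9 bases before the start. The E2F2 match begins 42 bases before the start of a gene that itself encodes an E2F factor. The CCAAT box (CCAAT on either strand, the core of the NF-Y site) matched in 25 of the 41 genes and in 10102 of all 27305. The cell cycle homology region, a motif of late cell cycle promoters (TTTGAA on either strand), matched in 4.88% of the replication genes, in 16.1% of all genes and in 52.9% of 17 mitosis genes. The full estrogen response element and the full androgen and progesterone response element, searched as GGTCA and TGACC, or GNACA and TGTNC, with 3 bases between them, matched in 0 of the 41 genes, against 0.0513% and 0.399% of all genes. A match describes the letters in this window only, and the absence of one says nothing about the factor.

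**Figure D1:**
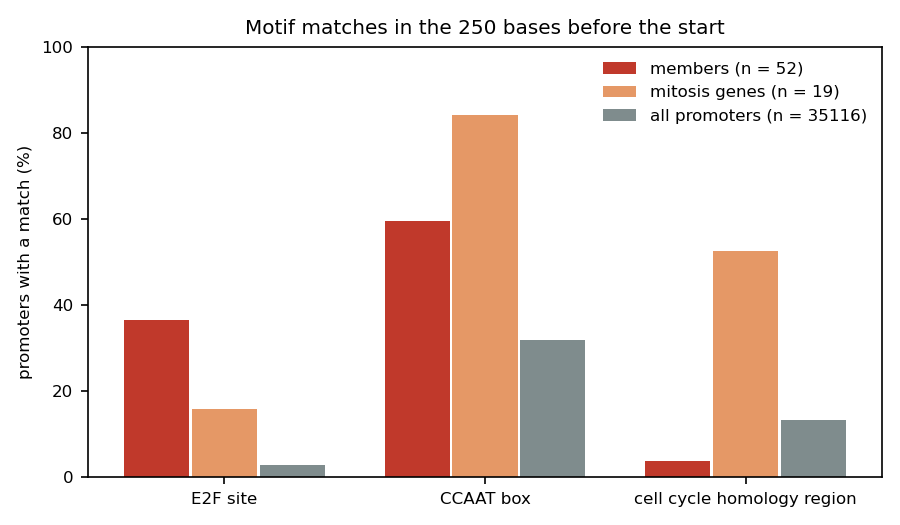
Share of promoters (percent, vertical axis from 0) with at least 1 match to each motif in the 250 bases before the start, for the replication and G1/S genes, the mitosis genes and all promoters in the RefSeq table. The E2F motif matched in 36.5% of the 52 promoters of the replication genes and in 2.79% of all promoters, while the cell cycle homology region stood highest among the mitosis genes.

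The hormones changed known targets. PDZK1, a scaffold protein and estrogen target, was 5.43 log2 units higher with E2 than with vehicle (limma adjusted p = 3.3e-23), and UGT2B11, an androgen-responsive enzyme, was 6.26 higher with DHT (limma adjusted p = 3e-22). All 8 luminal markers were above background on 36 of 36 arrays, and the basal keratins KRT5 and KRT14, the leukocyte markers PTPRC and CD3E and the endothelial marker CDH5 on 0. Of the fibroblast and leukocyte markers, COL1A1 and CD14 were above background on all arrays, and the endothelial markers PECAM1 and VWF were so on 34 and 26 of 36. The part of such signals in the results was not tested. Between 33.2% and 37.9% of probes were above background per array, and the number of arrays limits the precision. The arrays differed beyond their groups. A first component held 49.4% of the variance left within groups, and the 12 arrays in neighbouring columns 13 to 24 of the deposited table, here called the run, scored 6.16 to 49.2 on it. The other arrays scored -48.1 to 7.98, except VC replicate 1, which lies outside the run and scored 53.8. The run holds 3 of the DHT arrays, 2 each of E2, E2+MPA and E2+PROG, 1 each of VC, E2+DHT and E2s+PROG and none of MPA or PROG, and what it stands for is not given in the sources used here. The averaged E2 result is given with the run as a block and outside it.

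Over all 46 genes, the group means with E2 stood higher than those of their counterparts without it, and DHT had the lowest group mean. The mean deviation of the 46 genes from their averages over all arrays, in log2 units, ran from -0.15 to -0.01 in VC and from 0.05 to 0.16 in E2. It ran from -0.33 to -0.17 in DHT, from -0.20 to -0.11 in MPA and from -0.10 to -0.02 in PROG. With E2 added it ran from -0.05 to 0.00 in E2+DHT, from -0.03 to 0.25 in E2+MPA, from 0.13 to 0.23 in E2+PROG and from 0.11 to 0.17 in E2s+PROG. The 12 arrays of E2, E2+PROG and E2s+PROG therefore lay above all 16 arrays without E2, whose highest was -0.01. The E2+DHT arrays lay near the top of the VC range, above every DHT array. The E2+MPA arrays fell apart by the run: the 2 arrays outside it lay at -0.03 and 0.00 and the 2 inside it at 0.22 and 0.25. These are descriptions of the arrays, with no test.

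**Figure D2:**
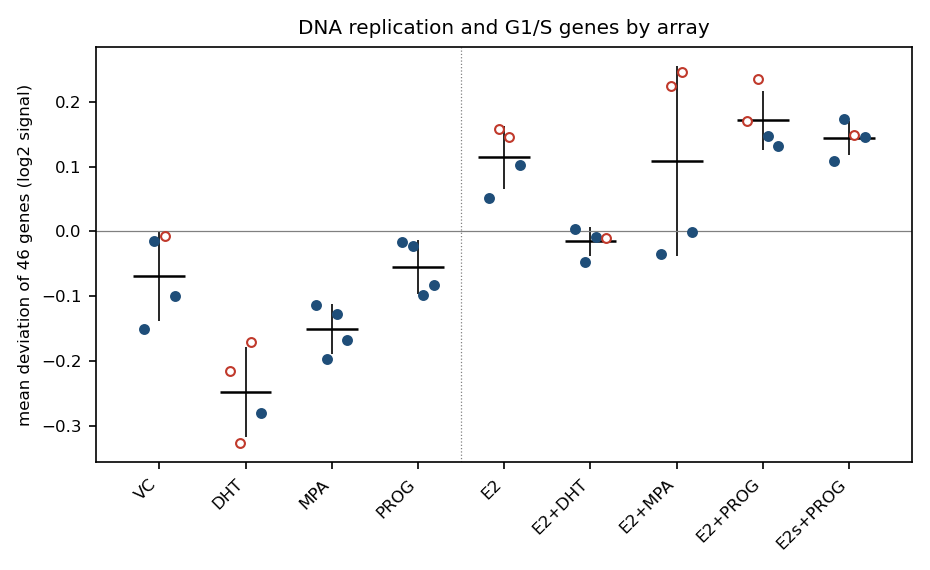
Mean deviation of the 46 tested genes from their all-array averages (log2 signal, vertical axis) on each of the 36 arrays, by group; filled points lie outside the run of neighbouring columns and open points inside it, horizontal bars are group means and vertical bars SD (n = 4). The 16 arrays without E2, left of the dotted line, lie at or below -0.01, while those of E2, E2+PROG and E2s+PROG lie between 0.05 and 0.23.

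The clearest change came from averaging the E2 effect over the 4 backgrounds, the 16 arrays of E2 alone or with DHT, MPA or PROG against the 16 of VC, DHT, MPA or PROG, a comparison added after the data were seen. In it 19 of the 46 genes, or 41.3%, rose and 0 fell (limma, Benjamini-Hochberg adjusted p under 0.05 over all 12195 genes), against 6.45% of all genes called, 4.32% higher and 2.13% lower. The median change of the 46 genes was 0.23 log2 units and that of all genes 0.00, and 42 of the 46 were above 0. Unadjusted, 32 of the 46 had p under 0.05, against 16.5% of all genes. The changes were small, at most 1.35-fold. Of the arrays compared, 7 of the 16 with E2 and 4 of the 16 without lay in the run. The count was 20 with the run as a block, where 8.48% of all genes were called, and 5 among arrays outside the run only, where 3.9% of all genes were called, CDC45, MCM2, POLD1, GINS4 and MCM10 passed and the median was 0.20. All 19 risers were above 0 outside the run, but 15 of them did not pass there, with limma adjusted p from 0.073 to 0.62. With the run as a block 2 of them, CDC6 and MCM6, did not pass (limma adjusted p = 0.054 and 0.067).

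Of the helicase, 7 of 10 tested subunits rose. CDC45, the factor that completes the helicase, stood in VC at 12.35, 12.63, 12.40 and 12.64 log2 units in replicates 1 to 4, and in E2 at 12.84, 12.86, 12.86 and 12.79. The E2 arrays lay above all VC arrays. With DHT it stood at 12.35, 12.31, 12.33 and 12.39, the lowest of the 9 groups, and with E2+DHT at 12.72, 12.62, 12.52 and 12.74, again without overlap. Its mean was 12.51 ± 0.09 (SD, n = 4) in MPA and 12.72 ± 0.22 in E2+MPA, whose arrays overlapped, and 12.72 ± 0.01 in PROG and 12.91 ± 0.13 in E2+PROG. Over the 4 backgrounds the E2 change of CDC45 was 0.26 (95% interval 0.16 to 0.36; limma adjusted p = 0.00059), close to the 0.26 outside the run (limma adjusted p = 0.027).

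MCM2, a subunit of the MCM ring, stood at 11.51, 11.34, 11.49 and 11.86 in VC, at 11.18, 11.36, 10.94 and 11.46 in DHT, at 10.95, 11.16, 11.32 and 11.38 in MPA and at 11.27, 11.31, 11.36 and 11.41 in PROG. With E2 alone it stood at 12.19, 11.52, 11.89 and 11.46, and with E2+DHT at 11.77, 11.38, 11.36 and 11.50. E2+MPA gave 11.58, 11.43, 12.23 and 11.87 and E2+PROG 11.68, 12.04, 11.64 and 12.15, both above every MPA and every PROG array. The VC and E2 arrays of MCM2 overlapped, and so did those of DHT and E2+DHT. Over the 4 backgrounds MCM2 rose by 0.40 (limma adjusted p = 0.0016), and it passed in all 44 alternative settings. The other MCM subunits that rose were MCM5 by 0.41 (limma adjusted p = 0.0082), MCM4 by 0.34, MCM6 by 0.24 and MCM7 by 0.21. MCM3 changed by 0.17 and did not pass (limma adjusted p = 0.096). Of the GINS subunits, GINS4 rose by 0.30 (limma adjusted p = 0.0060), while GINS3 changed by 0.27 and GINS2 by 0.13, neither past the threshold.

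Of the licensing genes, 2 of 5 rose: ORC1, the largest subunit of the origin recognition complex, by 0.40 (limma adjusted p = 0.033), and CDC6, which helps to load the ring, by 0.40 (limma adjusted p = 0.042). CDC6 passed in 17 of 44 alternative settings and ORC1 in 28. In single arrays CDC6 ran from 6.49 to 7.85 in VC and from 7.26 to 7.94 in E2, so the groups overlapped. CDT1, the partner of CDC6, changed by 0.33 and did not pass (limma adjusted p = 0.082), and ORC6 by -0.02. MCM10, which helps to start the helicase, changed by 0.20 (limma adjusted p = 0.58) and by 0.34 outside the run (limma adjusted p = 0.032).

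Among the polymerases 3 of 7 rose. POLD1, the catalytic subunit of polymerase delta, stood at 8.52, 8.83, 8.77 and 9.42 in VC and at 9.31, 9.11, 9.62 and 9.14 in E2. Only VC replicate 4 reached into the E2 range. That array lies in the run, and so do E2 replicates 1 and 3, the highest of E2 at 9.31 and 9.62. POLD1 stood at 8.96 ± 0.13 (SD, n = 4) in PROG and at 9.54 ± 0.13 in E2+PROG, with no overlap. It rose by 0.43 over the 4 backgrounds (limma adjusted p = 0.0021), by 0.45 outside the run (limma adjusted p = 0.0046), and passed in all 44 alternative settings. POLA1 and POLA2, both of the polymerase alpha-primase complex that lays down primers, rose by 0.27 and 0.30. The primase PRIM1 (0.16), POLE (0.22) and POLE2 (0.20) of polymerase epsilon and POLD3 (0.23) of polymerase delta did not pass.

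Of the clamp and strand-joining genes 4 of 8 rose. LIG1, which seals nicks between Okazaki fragments, rose by 0.32 (limma adjusted p = 0.0065), and FEN1, which trims their flaps, by 0.28 (limma adjusted p = 0.011). The clamp loader subunits RFC3 and RFC4 rose by 0.30 and 0.23, and RFC5 changed by 0.19 (limma adjusted p = 0.063). PCNA itself gave no usable estimate, 0.11 with a 95% interval from -0.56 to 0.78. Its levels followed the run: 9.64 to 10.86 on the 12 arrays in it, 11.29 to 12.66 on 23 others, and 8.54 on VC replicate 1. RFC2, another loader subunit, and DTL, which marks proteins for degradation when they bind PCNA on DNA, spread the same way. DTL stood at 8.75 to 10.67 in the run, at 10.25 to 11.59 on the 23 others and at 7.66 on VC replicate 1. Across all arrays the group-centred levels of the 46 genes correlated with the first component at a median of 0.55, from -0.98 for PCNA to 0.93 for GINS3, against a median of 0.30 over all genes. The part of the run in the changes of these genes was not tested beyond the block and the arrays outside it.

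None of the 5 nucleotide and uracil genes passed. TK1, thymidine kinase, changed by 0.22 (limma adjusted p = 0.063) and RRM2, a ribonucleotide reductase subunit, by 0.22 (limma adjusted p = 0.32). RRM1, the other subunit, changed by 0.08, UNG, which removes uracil from DNA, by 0.04, and TYMS, thymidylate synthase, by -0.01 (95% interval -0.12 to 0.10). TYMS stayed between 13.10 and 13.73 on all 36 arrays.

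Of the G1/S regulators, CCNE1 and E2F2 rose among 5 tested. CCNE1, cyclin E1, stood at 11.28, 10.58, 10.88 and 11.37 in VC and at 11.27, 11.24, 11.37 and 10.84 in E2, which overlap. In MPA it stood at 10.76, 10.75, 10.70 and 10.61, and in E2+MPA at 10.99, 11.07, 11.45 and 11.21, with no overlap. CCNE1 rose by 0.32 over the 4 backgrounds (limma adjusted p = 0.0079), and E2F2, an activating E2F factor, by 0.30 (limma adjusted p = 0.030). The repressor-type factor E2F8 changed by 0.39 and did not pass (limma adjusted p = 0.16), and the phosphatase CDC25A changed by 0.12. E2F1 was too dim to follow, above background on 18 of 36 arrays. Of the chromatin genes UHRF1, which recognises half-methylated DNA behind the fork, rose by 0.30 (limma adjusted p = 0.018). The histone chaperone subunits CHAF1A (0.35, limma adjusted p = 0.062) and CHAF1B (0.18) and the histone mRNA binder SLBP (0.18) did not pass. Neither DTL (0.36, 95% interval -0.15 to 0.88) nor the checkpoint adaptor CLSPN (-0.12) passed.

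**Figure D3:**
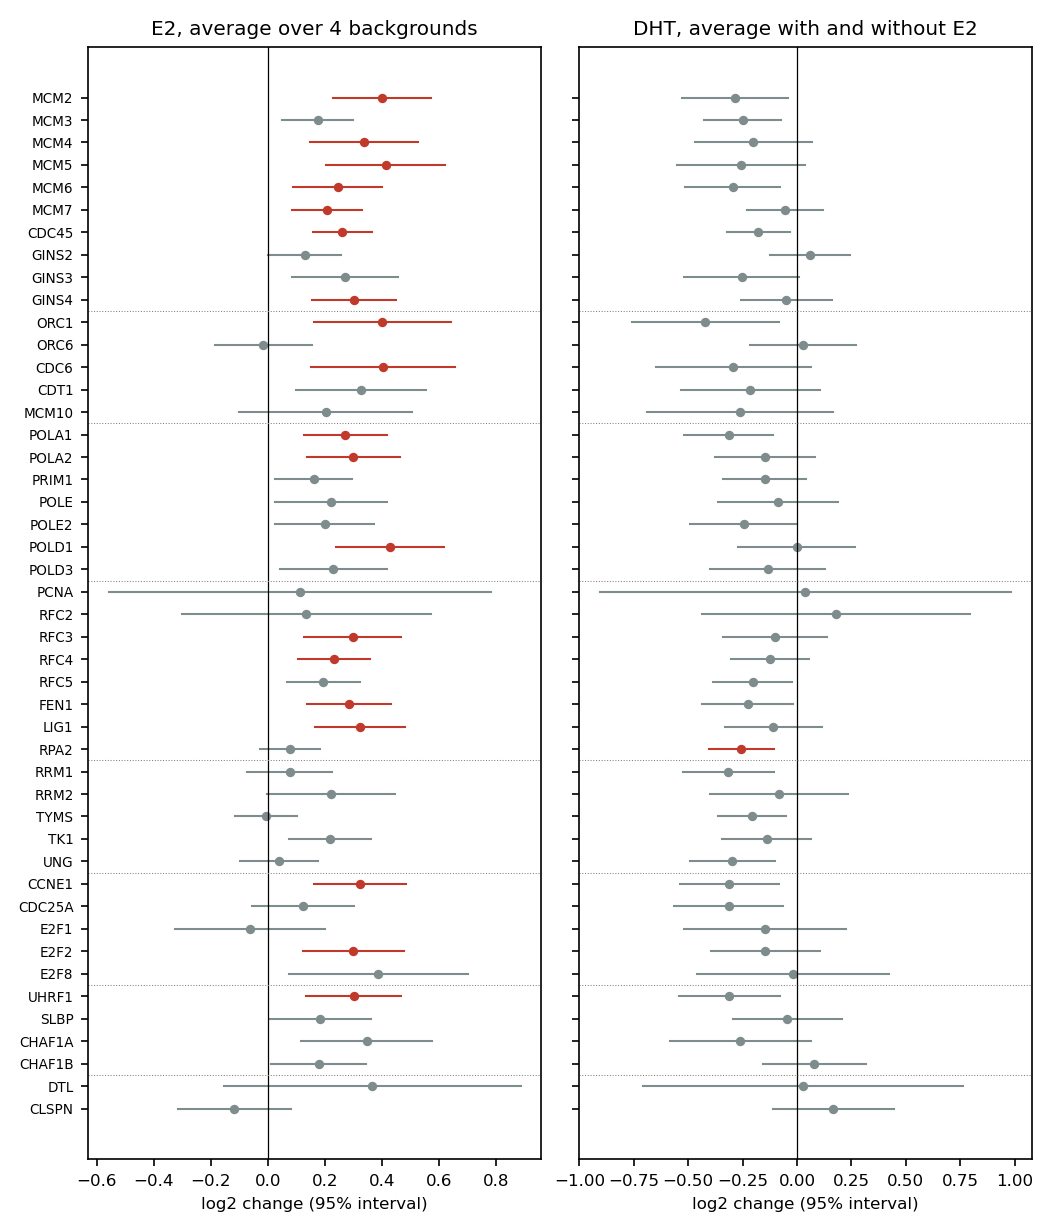
Log2 change with its 95% interval (horizontal axes, not to the same scale) of each of the 46 tested genes, for E2 averaged over 4 backgrounds (left) and DHT averaged with and without E2 (right); red marks an adjusted p under 0.05 over all genes, and dotted lines part the role groups. On the left 19 genes are red and all lie above 0, and on the right RPA2 alone is red, below 0.

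For genes with more than 1 kept probe, the text gives the probe with the highest mean. The second probes of MCM4 (0.30), RFC3 (0.39), RFC4 (0.19) and FEN1 (0.22) had unadjusted limma p-values under 0.05, as did other probes of CCNE1 (0.32) and MCM7 (0.62). Those of POLA1 (0.14) and UHRF1 (0.37), and the remaining ones of MCM7 (0.31) and CCNE1 (0.25), were above 0 and did not reach it. The dimmer probes of PCNA gave -0.03 and -0.04.

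The median change with E2 was above 0 in each of the 4 backgrounds, which share no arrays. No MPA or PROG array lies in the run, while 2 arrays each of E2+MPA and E2+PROG do. Outside the run the median against MPA was 0.14. The median change of the 46 genes with E2 was 0.14 against VC, 0.20 against DHT, 0.27 against MPA and 0.34 against PROG. Of the 46 genes 19 were above 0 in all 4 comparisons, against 8.43% of all genes, and 0 were below 0 in all 4, against 6.26%. Those 19 are not the same list as the 19 that passed on average: 15 genes are in both. Of the 22 mitosis genes, 2 were above 0 in all 4. None of the 46 genes passed in the interaction of E2 with DHT, with MPA or with PROG (limma adjusted p under 0.05), where 0.0082%, 0.0656% and 1.54% of all genes did. Unadjusted, 3, 10 and 9 of the 46 had p under 0.05, against 5.47%, 24.1% and 20% of all genes, so a difference between the backgrounds was not shown by this test. The interaction with MPA gave 3 without VC replicate 2 and 1 without E2+MPA replicate 1 or 2, and that with PROG gave 1 without E2 replicate 1. Here and below, the share of all genes called was not taken for fits without a block that left out single arrays. Such counts show only how the calls moved.

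**Figure D4:**
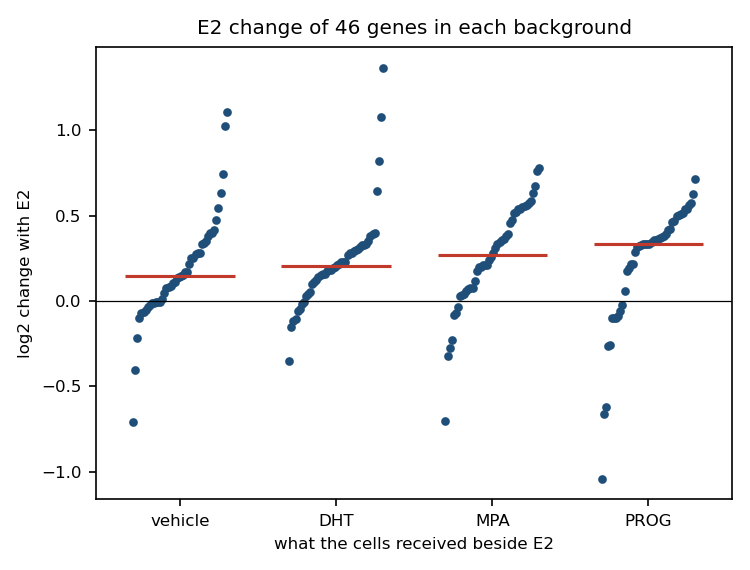
Log2 change with E2 (vertical axis) of each of the 46 tested genes in 4 backgrounds, each point 1 gene ordered by its value and each bar the median. The medians lie at 0.14, 0.20, 0.27 and 0.34 from vehicle to PROG, and 32, 38, 39 and 35 of the 46 genes lie above 0.

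In single comparisons, with 4 arrays against 4, few genes passed. Against VC, E2 raised GINS4 by 0.54 (limma adjusted p = 0.041), and the CLSPN probe was called lower (limma adjusted p = 0.048), 2 of 46 genes against 1.86% of all genes. Unadjusted, 10 of the 46 had p under 0.05, against 16.2%. GINS4, a subunit of the GINS complex, stood at 9.73, 9.78, 9.13 and 9.65 in VC and at 10.22, 10.25, 10.08 and 9.90 in E2, with no overlap. CLSPN stood at 6.92, 6.04, 6.56 and 6.32 in VC and at 5.70, 5.80, 5.76 and 5.73 in E2. This probe was above background on 4 of 4 VC arrays and on 0 of 4 E2 arrays. The VC mean was therefore set against the lowest signals above background, which gave a ratio of 1.40. That ratio bounds only the observed means from the side of the dim E2 arrays and makes no allowance for their spread. The highest VC value, 6.92, is that of replicate 1, and without this array the probe was not called. The other CLSPN probe, above background on 19 of 36 arrays, changed by 0.12 with an unadjusted limma p of 0.63, so the probes disagree. CLSPN passed in 4 of 20 alternative settings and GINS4 in 14 of 21. Some changes of genes that did not pass also depended on the probe. The brightest probes of MCM4 and RFC4 gave 0.08 and 0.28, and their second probes 0.58 and 0.63. In the other direction, the brightest probes of FEN1 and CDC25A gave 0.17 and -0.05, and their second probes -0.15 and -0.70. All of these probes were above background on 36 arrays. With the run as a block 8 genes were called higher and the CLSPN probe lower, against 12.4% of all genes, and the largest values were PCNA (1.53), DTL (1.29) and RFC2 (1.03). With no block these probes of PCNA and RFC2 gave 1.11 and 0.75, while the other PCNA probes gave -0.32 and -0.66 and the other RFC2 probe -0.0016, all above background on 36 arrays. The unadjusted limma p of the lower PCNA probe was 0.030, so the probes of PCNA disagree in sign. Without VC replicate 1 that block left 2 genes, both higher, against 3.1% of all genes. Without a block, 0 genes passed without E2 replicate 1, 2 or 3 or VC replicate 3, 1 without E2 replicate 4 or VC replicate 1, and 4 without VC replicate 2.

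E2+PROG against PROG raised TK1 alone, by 0.52 (limma adjusted p = 0.024), 1 of 46 against 4.81% of all genes. TK1 stood at 12.48, 12.60, 12.60 and 12.42 in PROG and at 12.70, 13.24, 12.93 and 13.30 in E2+PROG, with no overlap. The E2+PROG arrays at 13.24 and 13.30, replicates 2 and 4, lie in the run, and no PROG array does. Outside the run TK1 changed by 0.29 (limma adjusted p = 0.405). It passed in 13 of 20 alternative settings. Unadjusted, 22 of the 46 genes had p under 0.05, against 16.3% of all genes. The count at the adjusted threshold ran from 0 to 6 as single arrays of either group were left out, with 0 without PROG replicate 1 or 4 or E2+PROG replicate 2 or 4, 2 without E2+PROG replicate 3 and 6 without E2+PROG replicate 1. E2+MPA against MPA gave 0 of 46 (limma adjusted p under 0.05), against 1.35% of all genes, with 22 at unadjusted p under 0.05, against 17.2%. It gave 10, all higher, without E2+MPA replicate 1 and 8 without replicate 2, both outside the run. The shares of all genes called in these fits were not taken. E2+DHT against DHT gave 0 of 46 (limma), against 1.33% of all genes, with 7 at unadjusted p under 0.05, against 10.1%. With the run as a block 3 were higher, MCM2, MCM5 and CCNE1, against 1.68% of all genes.

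The median of the 46 genes stood lower with DHT than with vehicle, with no all-gene median set beside it, and no single gene passed. Against VC 0 of 46 passed (limma adjusted p under 0.05), against 2.40% of all genes, with a median of -0.21, 36 of 46 below 0 and 10 at unadjusted p under 0.05, against 13.6%. With the run as a block 9 passed, all lower, against 8.28% of all genes: MCM2, MCM3, MCM5, MCM6, ORC1, RRM1, CCNE1, CDC25A and UHRF1. Without VC replicate 1 that block left 3, against 2.75% of all genes, and among arrays outside the run, with 1 DHT array, 0, against 1.97%. With no block, 2 passed without VC replicate 2 or 3 and 1 without VC replicate 4, all lower. Averaged with and without E2, a comparison added after the data were seen, RPA2, a subunit of the single-strand binding protein RPA, fell by 0.26 on the log2 scale (limma adjusted p = 0.048), 1 of 46 against 3.26% of all genes. RPA2 stood at 13.12, 12.50, 12.46 and 12.64 in VC and at 12.39, 12.21, 12.39 and 12.41 in DHT. In E2 it stood at 12.66, 12.68, 12.59 and 12.75 and in E2+DHT at 12.45, 12.56, 12.50 and 12.45. In both pairs the arrays with DHT lay below those without, but RPA2 passed in 8 of 29 alternative settings. The averaged count was 0 without any 1 of the DHT, E2 or E2+DHT arrays or VC replicate 1 or 4, and 3 without VC replicate 2. The median of the 46 genes was -0.16 and that of all genes -0.03, and 39 of the 46 were below 0. Unadjusted, 15 of the 46 had p under 0.05, against 11.9%. The run as a block gave 8 lower, against 5.18% of all genes: MCM2 (-0.34), MCM5 (-0.32), ORC1 (-0.47), FEN1 (-0.26), RPA2 (-0.25), RRM1 (-0.33), CCNE1 (-0.36) and CDC25A (-0.36).

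MPA and PROG gave no call. MPA against VC gave 0 of 46 (limma adjusted p under 0.05), against 1.88% of all genes, with a median of -0.23 and 19 at unadjusted p under 0.05, against 25.5%. Without VC replicate 2 it gave 10, of which 8 were lower. PROG against VC gave 0 (limma), against 0.0574% of all genes, with a median of -0.13 and 10 at unadjusted p under 0.05, against 23.6%, and 4, all higher, without VC replicate 2. The averaged MPA and PROG effects, also added after the data were seen, gave 0 each (limma), against 3.13% and 1.77% of all genes, with 2 and 0 genes at unadjusted p under 0.05, against 14.8% and 11.1%. The MPA count was 1 without E2+MPA replicate 3. For MPA and PROG alike, the shares of all genes called in the fits without single arrays were not taken.

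Beside E2, the second hormone changed none of the genes past the threshold. E2+DHT against E2 gave 0 of 46 (limma), against 1.08% of all genes, with 38 of 46 below 0, a median of -0.15 and 6 at unadjusted p under 0.05, against 5.93%. E2+MPA and E2+PROG against E2 gave 0 each (limma), against 2.14% and 2.51% of all genes, with 4 and 3 at unadjusted p under 0.05, against 15.3% and 9.16%, and medians of -0.03 and 0.06. E2+MPA against E2 gave 2 without E2+MPA replicate 1 and 1 without replicate 2. E2s+PROG gave 0 against E2 and 0 against E2+PROG (limma), against 0.0902% and 1.74% of all genes, with 2 and 1 at unadjusted p under 0.05, against 1.78% and 7.22%.

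Over the 9 groups at once, 7 of 46 genes differed (limma F test, adjusted p under 0.05), against 8.82% of all genes. They were CDC45 (adjusted p = 0.00071), MCM2 (0.013), UHRF1 (0.022), UNG (0.025), GINS4 (0.027), CCNE1 (0.034) and PRIM1 (0.045). CDC45, MCM2 and CCNE1 were highest in E2+PROG, at means of 12.91, 11.88 and 11.22, UHRF1 in E2+MPA at 12.15, GINS4 and PRIM1 in E2 at 10.11 and 11.42, and UNG in PROG at 12.83. CDC45, UHRF1, UNG, CCNE1 and PRIM1 were lowest in DHT, MCM2 in MPA at 11.20 and GINS4 in VC at 9.57. For CDC45 the 3 highest groups were E2 (12.84 ± 0.03), E2s+PROG (12.87 ± 0.09) and E2+PROG (12.91 ± 0.13), and their arrays overlapped. The count was 4 without DHT replicate 1 or E2+PROG replicate 2, and 11 to 13 without VC replicate 2 or E2+MPA replicate 1, 2 or 3.

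**Figure D5:**
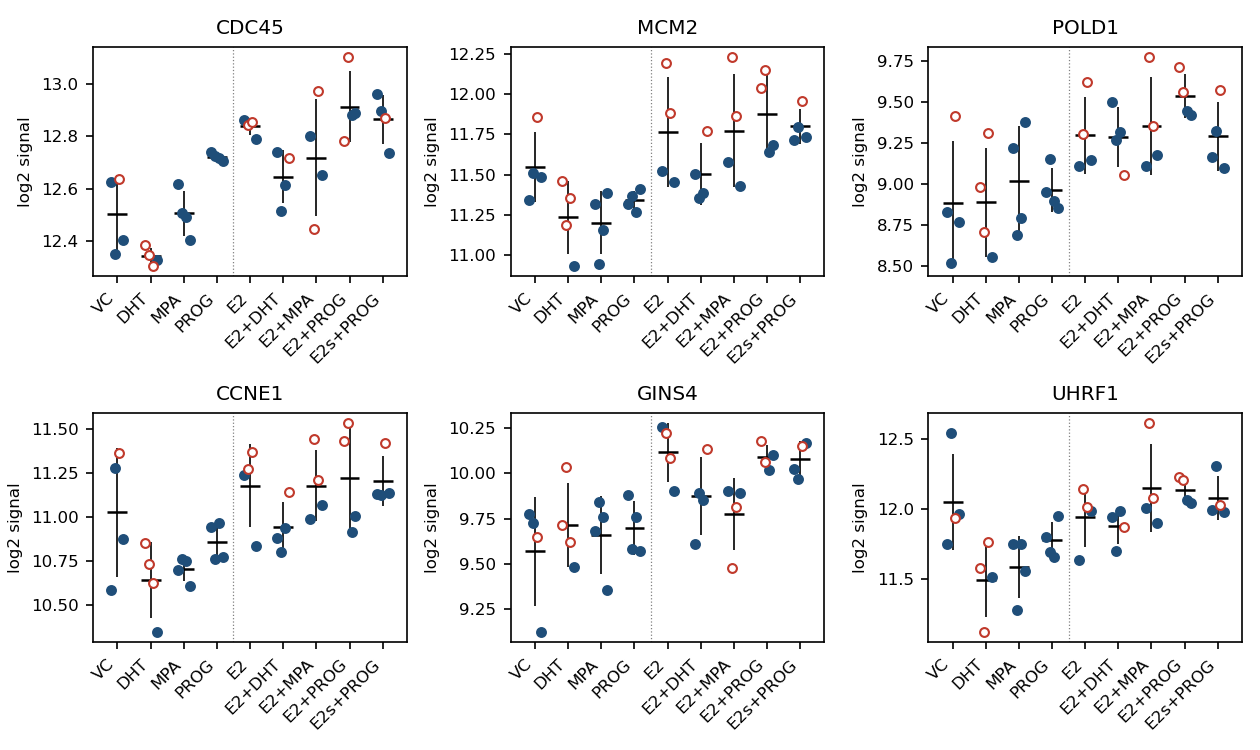
Log2 signal (vertical axes, each with its own range) of CDC45, MCM2, POLD1, CCNE1, GINS4 and UHRF1 on each array by group; filled points lie outside the run of neighbouring columns and open points inside it, with group means and SD (n = 4). Arrays with E2 stand right of the dotted line, and for CDC45 the DHT arrays lie between 12.31 and 12.39, below all E2-treated arrays.

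Lists of related genes, named by function, gave these counts. In the averaged E2 effect 6.45% of all genes were called, 4.32% higher and 2.13% lower. Of 36 other tested replication genes 8 rose in the averaged E2 effect and 0 fell, with a median of 0.15. Among them were RECQL4, a helicase (0.46), CHTF18, a part of an alternative clamp loader (0.39), ATAD2, a chromatin ATPase (0.36), and CHEK1, the checkpoint kinase (0.31). Of 24 other G1/S regulators 5 rose and 0 fell, with a median of 0.09: MYC, the transcription factor (0.39), CCND1, cyclin D1 (0.33), E2F7 (0.33), E2F6 (0.30) and CDK2, the partner kinase of cyclin E (0.27). Of 22 mitosis genes 0 passed (limma), with a median of 0.08. In the averaged DHT effect WDHD1 (-0.37), EXO1 (-0.31) and E2F7 (-0.43) fell and no mitosis gene passed, against 3.26% of all genes called. With so few calls, no change of the lists with DHT was shown. The difference between these lists was not tested.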

How the data were processed

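RNA of 36 ZR-75-1 samples was hybridized as biotinylated cRNA, per the labels' protocols. The authors deposited linear probe intensity, not normalized, and a detection p-value per probe and array, per the file headers. A deposited processed intensity table was a straight line of it per array, with slopes of 0.324 to 1.57. In R 4.3.3 with limma 3.58.1, neqc (offset 16, background inferred from detection p), quantile normalization and log2 were applied. Probes with detection p under 0.05 on at least 4 arrays were kept, 21116 of 48803, and the brightest probe of a gene was used. The limma model had a mean per group and 27 residual degrees of freedom, with Benjamini-Hochberg adjustment over 12195 genes. The fit was tested on simulated data. The genes, the lists and the rule for naming genes (those past the threshold, the leader of each role, fixed members, and those past it with the run as a block) were chosen with earlier results of these data known. Averaged effects, and genes named for them, were chosen after their values were seen. Alternatives changed the background step, filter, probe choice, blocks, array weights and single arrays. Columns of other samples numbered 0.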

Additional observations from a re-analysis of the deposited data

Results flagged for a closer look

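Of 234 gene and group combinations (26 genes in 9 groups of 4 arrays), 9 held an array whose gap to its neighbour took up most of the group's range, where chance alone gives about 5%. Low arrays were RFC2 at 8.99 in E2+DHT replicate 1, MCM10 at 10.31 in E2s+PROG replicate 4, RPA2 at 12.21 in DHT replicate 2 and PRIM1 at 11.24 in E2 replicate 3. High arrays were ORC1 at 8.66 in E2+DHT replicate 4, UHRF1 at 12.31 in E2s+PROG replicate 3, MCM6 at 13.50 in E2 replicate 1, CDC25A at 10.39 in E2+DHT replicate 1 and CCNE1 at 11.42 in E2s+PROG replicate 4. The latter pair of arrays each held 2 of the 9, and both belong to the run.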

How the results depend on the processing

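Counts are members past the limma threshold. Except where given above, the share of all genes past it is not set beside them. The counts show only how the calls moved. The averaged E2 rise, 19 of 46, gave 15 to 24 as single arrays were left out and 16 to 27 under the processing alternatives and blocks, but 5 among arrays outside the run and 12 without the 4 arrays farthest on the first component (VC replicates 1 and 2, DHT replicate 3, E2+MPA replicate 3). Values of called genes were followed through the alternatives for the named genes only, not for all 19 risers. None of those values changed sign. The untested medians of PROG against VC and of the interactions with MPA and PROG did in some settings given here. With single arrays left out, so did those of E2+MPA against E2 (-0.073 to 0.031) and the averaged PROG effect (-0.061 to 0.018). The medians of E2s+PROG against E2 and against E2+PROG, and of the interaction with DHT, also changed sign there. Causes of these moves were not tested. Some of those fits, but not all, held fewer arrays.

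Without the background step DHT against VC gave 1, E2+PROG against PROG 4 and the 9-group test 13. From the authors' processed values E2+MPA against E2 gave 1, E2+DHT against DHT 1, E2+PROG against PROG 2, the averaged DHT effect 0 and the 9-group test 13. Medians there were -0.0594 for MPA and 0.0296 for PROG against VC, 0.0961 for E2+MPA against MPA, and -0.0154 and -0.0142 for the interactions of E2 with MPA and PROG. E2 against VC gave 1 without the filter, 1 with the stricter filter and 0 in a fit of the groups compared, where E2+PROG against PROG gave 2 and the averaged DHT effect 0. Averaging probes gave 2 for the latter. The replicate numbers did not pair the samples (median correlations of same-numbered residuals 0.12, -0.01, 0.02 and 0.04), and the replicate block gave 1 for E2 against VC and 3 for E2+PROG against PROG.

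With the run as a block E2 against VC gave 9, DHT against VC 9, E2+MPA against E2 1, E2+DHT against DHT 3, the averaged DHT effect 8 and the 9-group test 18. Without VC replicate 1 that block gave DHT against VC 3, E2+MPA against E2 2, E2+DHT against DHT 4, the averaged DHT effect 3 and the 9-group test 23. Medians were then -0.0673 for MPA and 0.0441 for PROG against VC, and 0.0669 and 0.0348 for the interactions with MPA and PROG. Outside the run E2 against VC gave 4, PROG against VC 3, E2+PROG against PROG 0, the averaged DHT effect 0 and the 9-group test 1. Medians there were 0.14 for E2+MPA against MPA, and 0.23, 0.10 and 0.0538 for the interactions with DHT, MPA and PROG. Inside the run E2 against VC gave 0, E2+MPA against E2 1, the averaged DHT effect 0 and the 9-group test 0.

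With array weights E2 against VC gave 5, DHT, MPA and PROG against VC 1 each, E2+DHT against E2 1, E2+DHT against DHT 9, E2+PROG against PROG 7, the interaction with PROG 2, the averaged DHT and MPA effects 2 and 1 and the 9-group test 27, with medians of -0.0919 for MPA against VC and 0.0328 for the interaction with MPA. Without the 4 farthest arrays E2 against VC gave 1, E2+DHT against DHT 2, E2+PROG against PROG 6, the averaged DHT effect 0, the averaged MPA effect 1 and the 9-group test 15, with a median of 0.0720 for the interaction with MPA.

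With single arrays left out, E2 against VC gave 0 to 4, DHT against VC 0 to 2, MPA against VC 0 to 10, PROG against VC 0 to 4, E2+MPA against E2 0 to 2, E2+MPA against MPA 0 to 10, E2+PROG against PROG 0 to 6, the interactions with MPA and PROG 0 to 3 and 0 to 1, the averaged DHT and MPA effects 0 to 3 and 0 to 1 and the 9-group test 4 to 13. The median of PROG against VC ran from -0.25 to -0.0529.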
